A study of Sus scrofa with 12 samples.

Results

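The genes described here encode protein kinases, phosphatases, the subunits that steer them, and a few proteins named after them. They were chosen by name, from the gene symbols of the deposited peak lists. Symbols starting with MAPK, MAP2K, MAP3K, MAP4K, PRK, CDK, STK, RIOK, PIK3, SGK, RPS6K, CAMK, PPP1 to PPP6, DUSP, PTPN or PTPR were taken, and CAMK2D, CAMK2G, PRKAG1 and MAP3K7 were left out. This gave 50 of the 2159 genes with a peak and 299 of 13487 peaks. By their known roles, 18 encode kinases, 11 phosphatases and 17 subunits or regulators of either. The other 4 are CDKN1B and CDK2AP1, which bind cyclin-dependent kinases, PIK3AP1, an adaptor, and PRKCSH. PRKCSH encodes the beta subunit of glucosidase II and met the rule by its symbol alone.

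N6-methyladenosine (m6A), a methyl mark on adenosines of mRNA, was mapped in longissimus dorsi, the long muscle of the back, of 5-day-old pigs. The samples were 3 replicates of Large White pigs, a lean commercial breed, and 3 of Ningxiang pigs, an indigenous Chinese breed, with an antibody-enriched library and an unenriched input library for each. The labels give no treatment or genotype besides the breed, and do not say whether each replicate was its own animal, so the spread between replicates may be technical. Muscle is bulk tissue here, so a transcript from fewer cells and less of it per cell cannot be told apart.

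Kinases add phosphate to proteins or lipids and phosphatases take it off, so that a signal can be switched on and off quickly. In muscle, the MAPK cascade carries growth factor signals, AMP-activated protein kinase (AMPK) senses low energy, and calmodulin-dependent enzymes read the calcium that drives contraction. Serine/threonine phosphatases such as PP1 and PP2A have few catalytic subunits and gain their targets from many regulatory ones. m6A on a transcript is read by binding proteins that change its stability or translation.

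The lists held 2034 to 2533 peaks each, and sequencing depth is unknown from them, so a gene without a listed peak lay below the authors' calling threshold and may still carry m6A. Of 11 skeletal muscle markers, 10 had a peak, among them CKM, DES, RYR1 and MYOG; ACTA1, skeletal actin, had none. Markers of other cells also had peaks. Among those with a curated transcript, and so able to carry one, these were 3 of 3 for endothelium, 3 of 4 for leukocytes, 3 of 4 for adipocytes, 2 of 3 for fibroblasts and 1 of 1 for nerve, and 0 of 1 for red cells. A peak marks methylation and not the level of a transcript, so these counts give no cell shares.

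Kinase and phosphatase genes took a similar share of every list. They made up 2.47% ± 0.219 of the genes with a peak in Large White and 2.49% ± 0.0371 in Ningxiang (SD, n = 3 lists each). The Large White lists held 35, 32 and 42 of the 50 genes and the Ningxiang lists 33, 33 and 36. The ranges overlap, and the highest count was that of Large White replicate 3, which is also the longest list. Of the 50 genes, 19 had a peak in all 6 lists, or 38.0%, where 35.7% of all genes with a peak did. Single-list genes numbered 4, or 8%, against 18.2% of all genes. The 4 were CDK4 and CDK7, both in Large White replicate 3, and CDK9 and PPP1R14B, both in Ningxiang replicate 1.

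**Figure D1:**
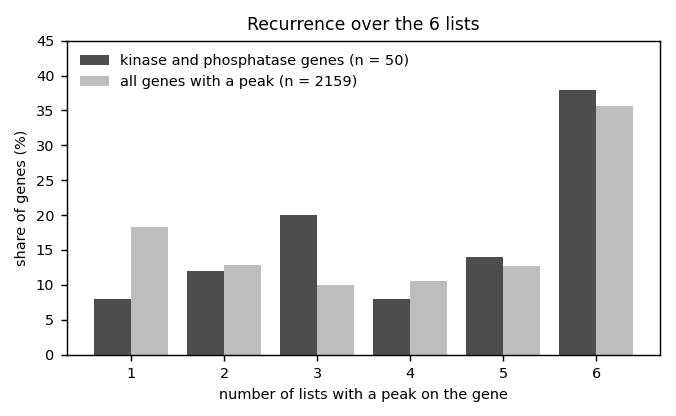
Share of genes (%, vertical axis from 0) by the number of lists with a peak on the gene (horizontal axis), for the 50 kinase and phosphatase genes (dark bars) and for all 2159 genes with a peak (light bars). The bars at 6 lists stand at 38.0% and 35.7%, and those at 1 list at 8% and 18.2%.

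Peaks in all 6 lists were found for 10 of 21 regulators, subunits and named-after proteins, and for 9 of 29 catalytic genes. This split was not tested.

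**Figure D2:**
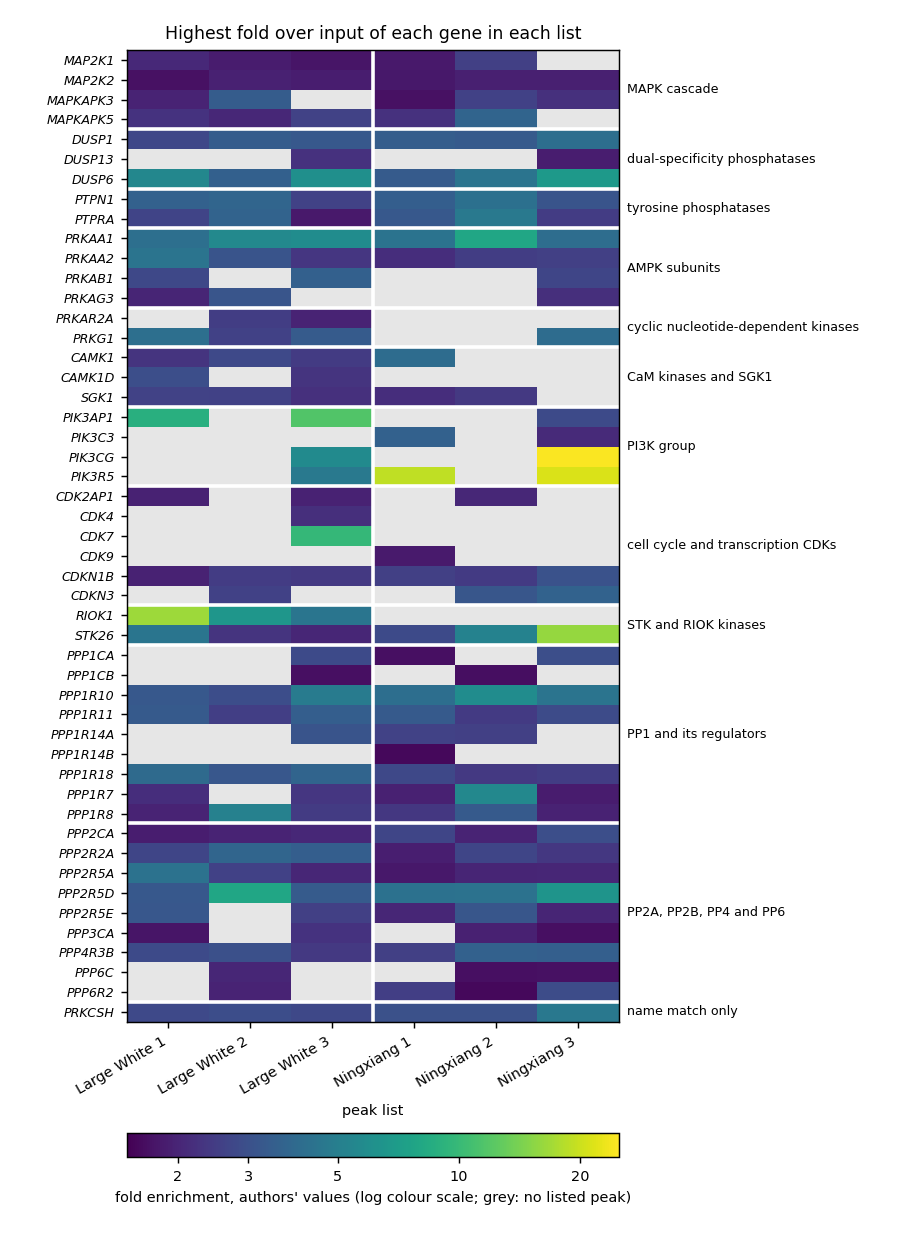
Highest fold over input of each gene shown (rows, grouped by role; 1 of the 50 genes is left out) in each of the 6 lists (columns), on a log colour scale from dark (low) to yellow (high), with grey where no peak was listed. AMPK, PP1 and PP2A groups hold full rows, and the PI3K group holds the brightest cells, up to 24.6, beside many grey ones.

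Folds below are the authors' ratio of enriched to input signal for a peak, and the highest one on a gene in a list is given. They are each list's own values and not a comparison of methylation between breeds. The highest peak of a gene can also lie at different places in different lists. To place them, each was ranked among all genes of its list, with 100 as the highest percentile. The median of the highest folds was 2.51 to 2.86 over the kinase and phosphatase genes of a list and 2.60 to 2.85 over all its genes.

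In the MAPK cascade, 5 genes carried peaks and all were present in 4 or more lists. MAP2K2, which encodes MEK2, a kinase in the middle tier of the cascade, had a peak in every list. Its fold was 1.71, 1.94 and 1.88 in Large White replicates 1, 2 and 3, and 1.79, 1.92 and 1.93 in Ningxiang replicates 1, 2 and 3. These are low folds, at percentiles 3.11 to 13.1 of their lists, but the p-values were low as well, with a log10 p of -37.9 at the weakest and -60.6 at the strongest. All 6 peaks crossed several exons on chromosome 2 and shared 74643431 to 74643458, 74645312 to 74645376 and 74646927 to 74646983 (susScr11, plus strand). MAP2K1, encoding MEK1, had peaks in 3 Large White and 2 Ningxiang lists, with folds of 1.76 to 2.55. The 2.55 belongs to a separate peak of Ningxiang replicate 2, listed in the 5′ untranslated region. The peak of that list near the 3′ end, where the 5 lists share bases, had 1.89. The MAPK-activated kinases MAPKAPK3 and MAPKAPK5 were each present in 5 lists, at folds of 1.71 to 3.39 and 2.06 to 3.72. A base covered in all 5 lists with a peak was found for each of these 3 genes. The longest such stretch was 46 bases in MAP2K1, 31 in MAPKAPK3 and only 1 in MAPKAPK5.

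The dual-specificity phosphatases, which switch MAP kinases off, included the strongest peaks of the set by p, those of DUSP1. DUSP1, an immediate early gene whose product inactivates MAP kinases in the nucleus, had a highest fold of 2.73, 3.42 and 3.24 in the Large White lists and 3.43, 3.33 and 4.13 in the Ningxiang lists. The log10 p of its peak was -391, -534 and -452 in Large White and -796, -132 and -187 in Ningxiang. Averaged over lists it ranked at percentile 97.4 by p, the highest of the 50 genes. By the gene bounds in the lists, its peak lay at the very end of the gene. Bases 51460116 to 51460414 of chromosome 16 were covered in all 6 lists, and the last of them is the gene's last base. The annotation names exon 4 of 5 for this peak in every list, and this mismatch was not resolved. The covered length was 329 bases in 5 lists and 299 in Large White replicate 3.

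DUSP6, a cytoplasmic phosphatase of MAP kinases, ranked high by both measures. Its highest fold was 5.52, 3.54 and 6.06 in Large White and 3.37, 4.43 and 6.77 in Ningxiang, with means of 5.04 ± 1.33 and 4.86 ± 1.74 (SD, n = 3 lists each). The percentile within a list ran from 69.7 to 91.7. It held shared sites in 2 exons on chromosome 5, at 93304651 to 93304891 in exon 2 of 3 and at 93306043 to 93306222 in exon 3. DUSP13, a muscle-expressed phosphatase, had a peak only in replicate 3 of each breed, at 2.24 and 1.87.

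Both tyrosine phosphatases with a peak had one in all 6 lists. PTPN1, encoding PTP1B, which removes phosphate from the insulin receptor, gave folds of 3.58, 3.74 and 2.60 in Large White and 3.49, 4.26 and 3.12 in Ningxiang. Its peaks were many and weak by p: 14 in all, with a strongest log10 p per list of -4.21 to -10.9. They were also scattered, since no base was covered in more than 4 lists. That stretch, 52085729 to 52085848 on chromosome 17, was covered in Large White replicates 1 and 2 and Ningxiang replicates 2 and 3 and was listed in the 3′ untranslated region. PTPRA, a receptor-type phosphatase that activates Src kinases, gave 2.66, 3.67 and 1.82 in Large White and 3.27, 4.66 and 2.48 in Ningxiang. Here all lists shared 32650208 to 32650295 on chromosome 17, at 92.8% of the gene's length from its 5′ end.

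AMPK is a trimer of a catalytic alpha, a beta and a gamma subunit, and peaks were found on genes for all of these. Both catalytic genes had a peak in every list and ranked in opposite ways. PRKAA1, encoding alpha 1, gave folds of 4.18, 5.66 and 5.87 in Large White and 4.38, 7.95 and 4.10 in Ningxiang, and of the 19 genes in all 6 lists it had the highest minimum. PRKAA2, encoding alpha 2, the main catalytic form of skeletal muscle, gave 4.44, 3.10 and 2.34 in Large White and 2.16, 2.49 and 2.55 in Ningxiang. By fold the mean percentiles were 86.0 for PRKAA1 and 47.1 for PRKAA2, and by p they were 46.0 and 81.0.

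Both alpha genes had 1 site common to all lists. That of PRKAA1 was at 25751771 to 25751950 on chromosome 16 with a further block at 25755311 to 25755337, which the same peaks covered. That of PRKAA2 was a block of 209 bases in exon 7 of 9, at 155694409 to 155694617 on chromosome 6, and its log10 p was -26.7 to -57.5. PRKAA2 also had peaks in exon 9, the last, in Large White replicates 1 and 3 and Ningxiang replicate 2. The fold of 4.44 in Large White replicate 1 belongs to that exon, with a log10 p of -5.33, and the exon 7 peak of the same list had 2.18.

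The beta and gamma genes were less regular. PRKAB1, encoding beta 1, had folds of 2.75 and 3.57 in Large White replicates 1 and 3 and 2.71 in Ningxiang replicate 3, and all of these lists covered 33203580 to 33203669 on chromosome 14 in the last exon. PRKAG3 encodes gamma 3, a subunit of fast glycolytic muscle that affects glycogen content in pigs. It had 2.0 and 3.14 in Large White replicates 1 and 2 and 2.18 in Ningxiang replicate 3. It was marked near its 5′ end: each of its peaks had 3 exonic blocks, and the shared bases 120866201 to 120866249 on chromosome 15 lay 1.22% into the gene.

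The 2 cyclic nucleotide-dependent kinase genes were listed mainly in Large White. Of the 50 genes, 30% were in more Large White than Ningxiang lists and 24% in fewer. Over all genes with a peak these shares were 31.2% and 21.1%. PRKG1, the cGMP-dependent kinase of smooth muscle signalling, had folds of 4.19, 2.58 and 3.35 in Large White, and 4.04 in Ningxiang replicate 3 with no peak in replicates 1 and 2. Its gene spans 97562710 to 98793080 on chromosome 14, and the peaks of these 4 lists met at base 97563037 in exon 18 of 18. PRKAR2A, a regulatory subunit of the cAMP-dependent kinase, had 2.51 and 1.98 in Large White replicates 2 and 3 and no peak in Ningxiang. Both of its peaks covered the last 148 bases of the gene, 31427786 to 31427933 on chromosome 13.

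CaM kinases are activated by calcium-bound calmodulin, and SGK1 is a kinase induced by glucocorticoids and serum. CAMK1 had folds of 2.28, 2.79 and 2.44 in Large White and 4.04 in Ningxiang replicate 1. CAMK1D had 2.96 and 2.30 in Large White replicates 1 and 3, at places that shared no base, and was the only gene with peaks in several lists for which this held. PIK3AP1 came close, with a single base shared by 2 of its 3 lists. SGK1 had 2.62, 2.59 and 2.21 in Large White and 2.16 and 2.39 in Ningxiang replicates 1 and 2. In Ningxiang its peaks lay between 29751022 and 29752441 on chromosome 1, where Large White replicates 1 and 3 also had one. All Large White lists covered 29753041 to 29753131, listed in the 3′ untranslated region, where no Ningxiang list had a peak.

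Genes of phosphoinositide 3-kinases, which make lipid signals at membranes, had the highest folds and few lists. PIK3CG, the catalytic gamma subunit found mainly in leukocytes, had 5.79 in Large White replicate 3 and 24.6 in Ningxiang replicate 3. The 5.79 was in exon 8 of 11 and the 24.6 in exon 2. In exon 2, Large White replicate 3 had 3.33 for an overlapping peak and 5.58 for another. PIK3R5, the regulatory partner of PIK3CG, had 4.70 in Large White replicate 3, 19.2 in Ningxiang replicate 1 and 21.4 in Ningxiang replicate 3. The 4.70 was listed in exon 19 of 21, where Ningxiang replicate 3 had 2.90. The 19.2 and 21.4 were in exon 10, where no Large White list had a peak. PIK3AP1, an adaptor of B cell and macrophage signalling, had 8.88 in Large White replicate 1, listed in exon 15 of 17. It had 11.6 in Large White replicate 3 and 2.82 in Ningxiang replicate 3, listed in exons 17 and 14. These peaks stood high by fold and low by p: the strongest log10 p was -6.68 for PIK3CG, -5.26 for PIK3R5 and -3.71 for PIK3AP1, while the median gene of a list had -11.0 to -13.45. Of 4 leukocyte markers that could carry a peak, CD68 and CD14 had a peak in all 6 lists and CD163 in 5, and their part in these values was not tested. PIK3C3, the lipid kinase of autophagy, had 3.59 and 2.10 in Ningxiang replicates 1 and 3, in peaks sharing 125983692 to 125983773 on chromosome 6.

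Among genes of the cell cycle, the inhibitor CDKN1B (p27) alone was in every list. Its folds were 1.96, 2.46 and 2.39 in Large White and 2.57, 2.42 and 3.04 in Ningxiang, with a log10 p of -25.1 to -78.9. All lists covered 59735386 to 59735594 on chromosome 5, a stretch of 209 bases at 7.40% of the gene's length in exon 1 of 3. CDKN3, a phosphatase of CDK2, had 2.58 in Large White replicate 2 and 3.19 and 3.63 in Ningxiang replicates 2 and 3. CDK2AP1 had 1.96, 1.96 and 2.05 in 3 lists. The kinases themselves were each in 1 list: CDK4, which drives entry into the cycle, at 2.20, CDK7, part of transcription factor TFIIH, at 9.76, and CDK9, the elongation kinase, at 1.84.

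STK26, a kinase of the MST family, varied most between lists among the genes present in all 6. Its folds were 4.49, 2.28 and 2.04 in Large White and 2.83, 5.25 and 16 in Ningxiang. The Ningxiang mean of 8.03 ± 7.01 (SD, n = 3) rests on replicate 3, and no base was covered in more than 3 lists. It also mixes places. The 2.83 and 16 belong to peaks listed in the 5′ untranslated region. The 5.25 and the Large White folds belong to peaks near the 3′ end, where Ningxiang replicate 3 had 2.14. RIOK1, an atypical kinase of small ribosomal subunit maturation, is described with the breed comparison.

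Of 9 genes of protein phosphatase 1, 4 of the 7 regulators and neither catalytic subunit were listed 6 times out of 6. PPP1CA was in 3 lists, at 2.81 in Large White replicate 3 and 1.68 and 2.94 in Ningxiang replicates 1 and 3, and PPP1CB in 2, at 1.68 and 1.67. PPP1R10, or PNUTS, which holds PP1 in the nucleus at chromatin, had 3.24, 2.93 and 4.84 in Large White and 4.16, 5.89 and 4.45 in Ningxiang. Its peaks ran over several exons, and 4 blocks of 101 to 126 bases were common to all lists, the longest at 23154931 to 23155056 on chromosome 7.

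PPP1R11, an inhibitor of PP1, had 3.33, 2.54 and 3.46 in Large White and 3.34, 2.41 and 2.84 in Ningxiang. All lists covered 22635732 to 22635934 on chromosome 7, up to the last base of the gene. PPP1R8, a nuclear inhibitor of PP1, had 1.98, 5.15 and 2.44 in Large White and 2.36, 3.31 and 1.96 in Ningxiang, with a common site of 90 bases in exon 7 of 7. PPP1R7 was in 5 lists at 1.85 to 5.59, and no base of it was covered in more than 3. PPP1R14A, an inhibitor of myosin phosphatase in smooth muscle, was in 3 lists at 2.56 to 3.11, and PPP1R14B in 1 at 1.59. PPP1R11, PPP1R10 and PPP1R18 lie close to each other on chromosome 7, with gaps of 514 kb and 53.9 kb, and all had peaks in every list.

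The 9 genes of PP2A, calcineurin, PP4 and PP6 carried 82 of the 299 peaks, more than any other group. PPP2CA, a catalytic subunit of PP2A, had folds of 1.87, 1.98 and 2.06 in Large White and 2.69, 1.99 and 2.94 in Ningxiang. Its common site was a block of 120 bases in exon 7 of 7, at 136498348 to 136498467 on chromosome 2. Peaks at that site had folds of 1.85 to 2.15 over the 6 lists. The 2.69 and 2.94 of Ningxiang replicates 1 and 3 belong to separate peaks, listed in exons 1 and 2. PPP2R5D, a B56 targeting subunit, had 3.24, 7.95 and 3.35 in Large White and 4.28, 4.35 and 6.41 in Ningxiang, at percentiles 63.0 to 94.0. A peak on this gene in every list began in the 5′ untranslated region and crossed to 38072714 to 38072797 on chromosome 7, at 75.2% of its length.

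PPP2R5A, another B56 subunit, had 4.35, 2.58 and 2.04 in Large White and 1.79, 2.01 and 2.03 in Ningxiang, without a common base over more than 3 lists. PPP2R5E was in 5 lists at 2.01 to 3.22. PPP4R3B, which directs PP4, had 2.83, 2.97 and 2.39 in Large White and 2.57, 3.59 and 3.52 in Ningxiang. Its 15 peaks included 1 in each list that covered the last 120 bases of the gene, 85708675 to 85708794 on chromosome 3. PPP3CA, the catalytic subunit of calcineurin, which couples calcium to slow fibre gene expression, was in 4 lists at 1.69 to 2.27. PPP6C was in 3 lists at 1.69 to 2.04. Its regulator PPP6R2 was in Large White replicate 2 and in all Ningxiang lists at 1.59 to 2.90, and each of these 4 lists covered 286295 to 286413 on chromosome 5.

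PRKCSH, the glucosidase subunit that met the rule by name alone, had 2.80, 2.93 and 2.77 in Large White and 3.03, 3.02 and 4.63 in Ningxiang. It was second to DUSP1 by p, at a mean percentile of 91.4, and is counted in all totals.

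Peaks of different lists often shared bases. Of 46 genes with a peak in 2 or more lists, 34 had at least 1 base covered in every list that held a peak on the gene. For MAPKAPK5, PPP6C and PRKG1 this was a single base, and the share over all genes was not computed. A base covered in all 6 lists was present for 16 of the 50 genes, or 32.0%, against 28.8% of all genes with a peak. Present in every list but without such a base were PTPN1, PPP2R5A and STK26. The midpoint of 42.0% ± 1.00 of the set's peaks in Large White and 33.6% ± 8.02 in Ningxiang (SD, n = 3 lists each) fell within the final 10% of the gene. Over all peaks the shares were 35.4% ± 0.646 and 35.7% ± 0.931. The Large White lists gave 41.2%, 41.7% and 43.1% and the Ningxiang lists 28.6%, 42.9% and 29.4%, so Ningxiang replicate 2 lies within the Large White range. With 1 peak per gene and list, the one with the lowest p, the shares were 44.7% and 33.4%. By gene, the median peak position lay there for 18 of 50, or 36%, against 33.4% of all genes. Set against all peaks, the annotation's exon number gave the opposite order of means in Large White and the same order in Ningxiang. Among peaks that carry such a number, the last exon was named for 19.3% ± 5.05 of the set's peaks in Large White and 14.7% ± 5.04 in Ningxiang. For all peaks these were 32.6% ± 0.387 and 33.7% ± 0.591 (SD, n = 3 lists each). The exon number names 1 exon of a peak that crosses several and is absent for peaks listed in untranslated regions.

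Peaks of these genes crossed splice junctions more often than the average peak of the same list in all 6 lists. The share was 68.2% ± 2.12 in Large White and 64.5% ± 6.02 in Ningxiang, against 57.7% ± 1.41 and 55.1% ± 1.41 over all peaks (SD, n = 3 lists each). Several peaks of a list lie on the same gene, so they are not independent, and this was not tested. Length is counted with introns, which places a 3′ terminal exon of a long gene such as PRKG1 at nearly 100% of it.

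**Figure D3:**
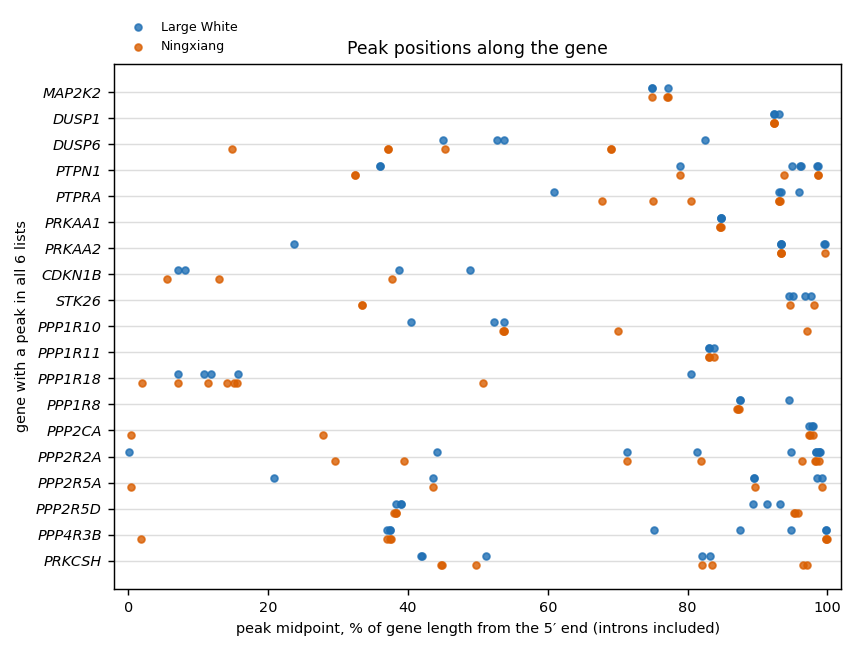
Midpoint of each peak as a percentage of gene length from the 5′ end (horizontal axis, introns included) for the 19 genes with a peak in all 6 lists (rows), with Large White peaks in blue and Ningxiang peaks in orange. DUSP1, PRKAA1, MAP2K2 and PPP1R11 hold their peaks at 1 place, while PTPN1 and PPP2R2A spread over the gene, and CDKN1B and PPP1R18 are marked mostly near the 5′ end.

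Rank by fold and rank by p lay far apart for 6 of the 50 genes. CDK7, PIK3AP1, PIK3CG and PIK3R5, or 8% of the set, had a mean fold in the top 25% of a list and a mean p in the weakest 25%; 12.5% of all genes did. MAP2K2 and PPP1CB, or 4%, had the opposite pattern, against 5.65% of all genes. A p-value rises in strength with the number of reads as well as with the fold, and read numbers were not analysed here.

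**Figure D4:**
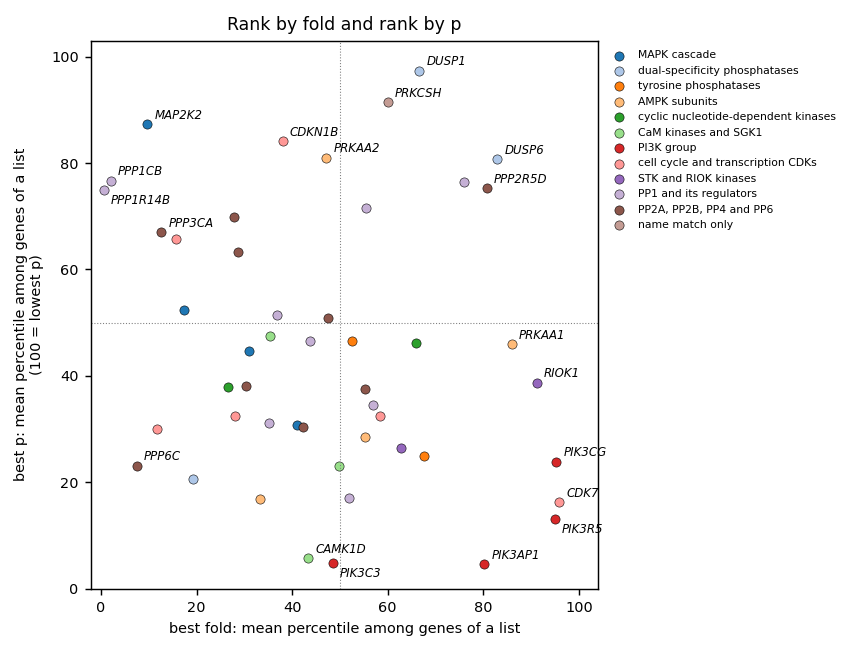
Mean percentile of a gene's highest fold (horizontal axis) against that of its lowest p (vertical axis, 100 for the strongest) among the genes of a list, averaged over the lists with a peak, for the genes coloured by role, with 1 of the 50 left out. DUSP1 stands at the top with 97.4 by p, MAP2K2 at the upper left with 9.66 by fold and 87.3 by p, and PIK3R5 at the lower right with 94.9 by fold and 13.1 by p.

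Between the breeds, RIOK1 alone of the set was listed in every Large White replicate and in no Ningxiang replicate, as were 1.34% of all genes. The reverse held for 0 of the 50 and for 0.741% of all genes. Its folds in Large White were 16.6, 6.6 and 4.49, at percentiles 83.6 to 98.8, and no Ningxiang list had a peak. The peaks did not share a place. Replicates 1 and 3 both covered 4775142 to 4775282 on chromosome 7, at 94.3% of the gene, whereas the peak of replicate 2 crossed 4 exons from 4755076 to 4759858. Fisher's exact test, two-sided, gives p = 0.1 for such a gene, the lowest value 3 lists against 3 can reach. Without Large White replicate 1 or 2 or Ningxiang replicate 1 or 3, the Large White count became 2 by adding PRKAR2A, CAMK1D, CAMK1 and PRKG1 in that order, and without Large White replicate 2 or Ningxiang replicate 2 the Ningxiang count became 1, with PPP6R2 and PIK3C3. In the stronger 50% of each list by p, RIOK1 no longer met the rule and SGK1 did.

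The number of exonic bases covered by peaks was then compared for each gene. For 5 of the 50 genes it was higher in every Large White list than in any Ningxiang list, where 7.78% of all genes did the same. For 0 of 50 it was higher in every Ningxiang list, against 2.92% of all genes. At this size, 10.0% against 7.78%, the Large White count is near that of genes at large. PPP2R2A, a B subunit that directs PP2A to its substrates, had 868, 958 and 1079 covered bases in Large White and 359, 839 and 570 in Ningxiang. The Large White lists were all higher, by a mean of 968 ± 106 against 589 ± 241 (SD, n = 3). Folds were 2.71, 3.76 and 3.47 in Large White and 1.89, 2.69 and 2.37 in Ningxiang, and all lists shared 10282130 to 10282309 on chromosome 14, at 98.3% of the gene.

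PPP1R18, which targets PP1 to actin, had 651, 594 and 740 covered bases in Large White and 298, 534 and 505 in Ningxiang. Its folds were 3.95, 3.23 and 3.70 in Large White and 2.77, 2.40 and 2.49 in Ningxiang. Most of its peaks lay in exon 1 of 3, where the 6 lists shared only 30 bases, at 23219163 to 23219192 on chromosome 7. Another stretch of 59 bases in the same exon, 23219606 to 23219664, was covered in all Large White lists and in no Ningxiang list. It adjoins a peak of Ningxiang replicate 2, which begins at 23219665. PRKAA2 had 597, 479 and 449 covered bases in Large White and 209, 419 and 299 in Ningxiang, a difference that lay mostly outside the site in exon 7 common to all. PRKG1 had 239, 329 and 655 in Large White and 0, 0 and 209 in Ningxiang. RIOK1 had 328, 209 and 477 in Large White and 0 in each Ningxiang list.

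**Figure D5:**
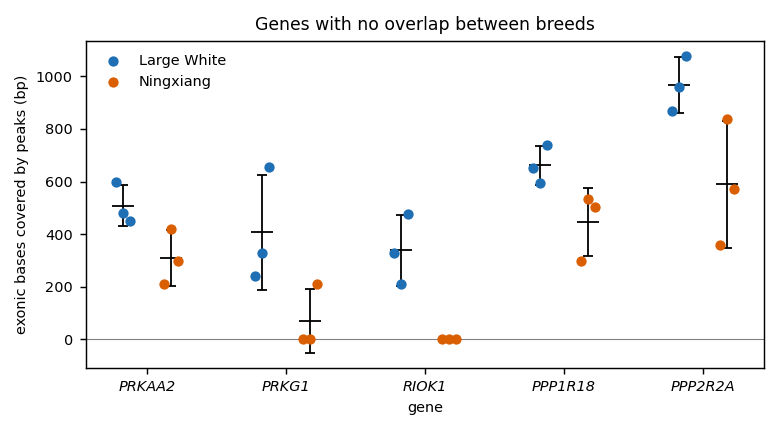
Exonic bases covered by peaks (vertical axis, bp) for the 5 genes whose values did not overlap between breeds, with a point per list (Large White blue, Ningxiang orange), a horizontal line for the mean and whiskers of 1 SD (n = 3). The narrowest gap is that of PPP2R2A, with 868 as the lowest Large White value and 839 as the highest Ningxiang value.

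For each of these 5 genes the exact two-sided permutation p was 0.1, the smallest that 3 against 3 allows, and 0.935 after Benjamini-Hochberg adjustment over all 2159 genes, so none passed 0.05. When each list was trimmed to its 2034 strongest peaks, 3 genes were left, PPP1R18, PPP2R2A and RIOK1, and counting peaks in place of bases left RIOK1 alone. In the stronger 50% of each list, 4 genes met the rule and PPP2R2A was the only one of the 5 among them. The Large White count was 10 without Large White replicate 2 and 8 without Large White replicate 3. The Ningxiang count was 3, 1 and 1 without Large White replicates 1, 2 and 3, and 1 and 4 without Ningxiang replicates 1 and 2. Some cell type markers were also covered over more bases in every Large White list, as were 7.78% of all genes. They were CDH5, 1 of 3 endothelial markers with a peak, DCN, 1 of 2 for fibroblasts, and PPARG, 1 of 3 for adipocytes. The other markers of these cells, among them PECAM1, PDGFRA and ADIPOQ, did not meet this rule. None of the 10 skeletal muscle or 3 leukocyte markers with a peak met it. The part of cell types in these differences was not tested.

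Sites of a single breed were found inside genes marked in both. A stretch covered in 3 of 3 Large White lists and 0 of 3 Ningxiang lists was present in 8 of 50 genes, or 16%, against 12.4% of all genes. The reverse held for 3 of 50, or 6%, against 4.86%. The 8 were PPP1R10, PPP1R18, PPP1R8, PPP2R5D, PRKAA1, PTPN1, SGK1 and STK26. The stretch was 1 base in STK26, 29 in PPP1R8 and 30 in PPP1R10. The longest was that of SGK1, with 91 bases, followed by 88 bases of PTPN1 at 52084720 to 52084807 on chromosome 17. Several were only the edge of a site common to all: the 60 bases of PRKAA1, 25751711 to 25751770, adjoin its shared block. The 3 in the other direction were CDKN1B with 29 bases, PPP2R5D with 30 and PPP1R7 with 1. A minimum of 50 bp left 5 genes for Large White and 0 for Ningxiang. The Large White count was 13 without Large White replicate 2, and the Ningxiang count was 5 without Large White replicate 3 and 7, 9 and 5 without Ningxiang replicates 1, 2 and 3.

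PPP2R5D had sites of both kinds in its 3′ part. Large White lists covered 38076376 to 38076447 on chromosome 7, at 91.2% of the gene, and Ningxiang lists covered 38077417 to 38077446, at 95.6%. The peak of Large White replicate 3 ends at 38077416, so the Ningxiang stretch is only the edge beyond that peak. Folds of the Large White peaks there ran from 1.99 to 3.24 and those of the Ningxiang peaks from 1.71 to 2.29.

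Other signalling genes, taken from a list of 114 kinases, phosphatases, cyclins and adaptors outside the name rule, were read in the same way. Of these, 45 could carry a peak and 41 did, of which 16 had one in all 6 lists, or 39.0%, beside 38.0% of the set. These included AKT1, the kinase downstream of insulin, at folds of 1.77 to 2.81, and IGF1R, the receptor of insulin-like growth factors, at 2.58 to 14. By covered bases 2 of the 41 were higher in every Large White list, where 7.78% of all genes were, and 4 in every Ningxiang list, where 2.92% were. CHUK, a kinase of NF-kappaB signalling, had a peak in all Large White lists and in no Ningxiang list; GSK3A, a glycogen synthase kinase, had 594, 476 and 594 covered bases in Large White and 388, 150 and 208 in Ningxiang.

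The 4 genes higher in Ningxiang were IRS1, RCAN1, NFATC1 and JUN. RCAN1, an inhibitor of calcineurin, had 241 covered bases in each Large White list and 422, 332 and 301 in Ningxiang. NFATC1, a transcription factor activated by calcineurin, had 601, 1022 and 570 in Large White and 1109, 1260 and 1499 in Ningxiang. JUN, a transcription factor phosphorylated by MAP kinases, had 450, 420 and 600 in Large White and 780, 660 and 780 in Ningxiang, and IRS1, the insulin receptor substrate, 1529, 1199 and 1378 against 1709, 1650 and 1590. In all of these the breeds did not overlap, and with 3 lists each none can pass 0.05.

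Of the 2159 genes with a peak, 2129 matched a curated RefSeq transcript of the Sscrofa11.1 table, so genes with only predicted transcripts were hardly represented. That table holds 327 genes under the same name rule, and 70 have a curated transcript. Peaks were found on 50 of the 70, or 71.4%, against 53.4% of all 3986 genes with a curated transcript. The 20 without a listed peak included CDK1, CDK2 and CDK5, the PP1 and PP2A subunits PPP1CC and PPP2R1A, PRKAB2, which encodes the AMPK beta 2 subunit, PRKAR1A, and MAPK12, the p38 kinase of muscle.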

How the data were processed

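The authors deposited 1 peak list per replicate for MeRIP-seq of longissimus dorsi, 6 lists from 12 samples. The description of an enriched sample and of its input name the same list, and it was assigned to the enriched sample. Per the file headers, each peak has a position, exonic blocks, a fold enrichment (a linear ratio of enriched to input signal) and a p-value. The deposited log10 p is a score used for ranking. Tools in the submitters' processing notes are ChIPseeker 1.30.2, FastQC 0.11.9 and HOMER, with the build susScr11. Neither aligner nor caller is given in the sources used here. Depth is unknown, and read counts were not analysed here.

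Starts count from 0 and are printed after adding 1. Exon numbers were turned round on the minus strand, and untranslated-region classes are named for plus-strand genes only. Covered bases are the union of exonic blocks per gene and list. They were compared by exact two-sided permutation with Benjamini-Hochberg adjustment over 2159 genes; the smallest p is 0.1. A site is a run of at least 1 bp. The counting rules were tested on simulated data. Python 3.11.15, pandas 2.3.3, NumPy 2.4.6 and SciPy 1.17.1 were used. All 50 genes enter the counts, and 1 of them is not reported here by name. Values per list were given by rule to genes listed in 1 breed only, those whose covered bases do not overlap, and, among genes in all 6 lists, the 10 with the highest minimum and the 5 with the lowest maximum fold, the 5 with the most peaks and the 5 strongest by p; others were added after their values were seen. Members and lists were chosen with earlier results of these data known. Alternatives were the stronger 50% of each list, equal list lengths, a minimum of 50 bp, peak number in place of bases, and leaving out each list.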

Additional observations from a re-analysis of the deposited data

How the results depend on the processing

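Of the genes with a peak in all 6 lists, 10 of 19 stayed in the stronger 50% of each list by p, and 10 of 16 kept a site common to all. With equal list lengths 16 of the 19 remained. The count of genes covered over more bases in every Large White list went from 5 to 3 with equal list lengths and to 1 by peak number. Sites of 1 breed went from 8 to 5 and from 3 to 0 at a minimum of 50 bp. With 1 peak per gene and list, a choice made after the data were seen, 44.7% of Large White and 33.4% of Ningxiang peaks lay in the last 10% of the gene. Leaving out each list in turn gave 1 to 2 Large White only and 0 to 1 Ningxiang only genes, 19 to 22 genes in every remaining list, 6 to 10 and 0 to 4 genes with more covered bases in Large White and in Ningxiang, and 9 to 13 and 4 to 9 genes with a site of that breed only. A rule over 5 lists is easier to meet than over 6. The replicate numbers did not pair the lists: deviations from the breed means correlated at 0.0290, 0.0134 and -0.0351 for numbers 1, 2 and 3, and not every list correlated best with its own number. In a replicate block, where same-numbered lists are compared, 7 genes were higher in Large White in all 3 pairs and 1, PRKCSH, in Ningxiang; the smallest p of such a test is 0.25. Position along the spliced transcript was not run, since no exon annotation was used here. Unknown depth limits every absence of a peak.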
